A study of Caenorhabditis elegans with 3 samples.

Results

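The X chromosome promoter regions are the MEP-1 binding regions whose point source, their single base of highest signal, lay on chromosome X no more than 500 bp upstream or 100 bp downstream of the transcription start site (TSS) of an annotated protein-coding transcript. They numbered 366 of the 5229 rows of the deposited optimal list, a set thresholded on the irreproducible discovery rate (IDR) between replicates. The other 710 of the 1076 X regions lay outside promoters, and 1823 of 4133 autosomal regions lay at promoters. The assay was chromatin immunoprecipitation with sequencing (ChIP-seq) of MEP-1 tagged with GFP, in intact L4 larvae of Caenorhabditis elegans, with 1 group of 3 biological replicates. The animals were strain OP102, which carries unc-119(tm4063) on chromosome III and the transgene wgIs102, with both sexes pooled in a proportion the labels do not give. A note on replicate 3 places a GFP-FLAG tag at the C-terminus of MEP-1, and the labels do not say under which promoter the transgene is expressed. Replicate 3 came from another stock source than replicates 1 and 2 and alone has a note on sonication. The input control was not analysed here. In whole animals, binding in few cells and weaker binding in many cells cannot be told apart.

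MEP-1 is a nuclear zinc-finger protein that works with the chromatin remodeller LET-418 and the histone deacetylase HDA-1, and is known for keeping germline genes silent in somatic cells. The worm X chromosome is the sex chromosome: hermaphrodites carry a pair and males a single copy, and a condensin-based dosage compensation complex, recruited by SDC-2, lowers X transcription in hermaphrodites. Many worm mRNAs are trans-spliced to a leader, so an annotated TSS is often the splice site, and the start of the primary transcript can lie farther upstream.

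The sequences below are windows of 100 bases at the point source of 10 X promoter regions. They are shown because they hold, or lack, short words more frequent at point sources than 500 bp away. They come from the RefSeq genome of build ce11 (assembly WBcel235), are written 5′ to 3′ on the strand of the gene named, and overlap no annotated exon. Capitals mark the GA repeat GAGAGA, the CA repeat ACACAC, the word AGACGC, the word ACGCGC and the reverse complement of each, and lin-14 is shown as a window without any of them. All of these words but GAGAGA were chosen after the sequences had been seen, so their higher frequency is partly built in.
serp-1.1, chrX:15841227-15841326, plus strand: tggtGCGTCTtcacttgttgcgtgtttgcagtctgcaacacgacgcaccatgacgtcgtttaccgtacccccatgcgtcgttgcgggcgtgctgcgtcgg
rpl-11.2, chrX:2242943-2243042, minus strand: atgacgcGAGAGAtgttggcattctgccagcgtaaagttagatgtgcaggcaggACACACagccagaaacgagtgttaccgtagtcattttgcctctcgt
mans-3, chrX:5165191-5165290, plus strand: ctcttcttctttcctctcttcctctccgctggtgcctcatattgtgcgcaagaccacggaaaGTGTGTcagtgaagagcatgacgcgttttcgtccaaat
ZC506.1, chrX:9958711-9958810, plus strand: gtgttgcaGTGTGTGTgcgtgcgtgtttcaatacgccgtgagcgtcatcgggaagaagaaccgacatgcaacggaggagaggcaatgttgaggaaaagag
hsp-3, chrX:6092127-6092226, minus strand: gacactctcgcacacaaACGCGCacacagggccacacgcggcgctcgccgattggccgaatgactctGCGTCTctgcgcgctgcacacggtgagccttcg
eef-1A.2, chrX:7823238-7823337, plus strand: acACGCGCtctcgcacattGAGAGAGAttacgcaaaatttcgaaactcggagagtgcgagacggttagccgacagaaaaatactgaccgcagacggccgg
sdc-2, chrX:11522264-11522363, plus strand: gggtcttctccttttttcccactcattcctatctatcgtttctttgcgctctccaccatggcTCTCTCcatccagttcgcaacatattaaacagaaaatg
nhr-1, chrX:17513705-17513804, plus strand: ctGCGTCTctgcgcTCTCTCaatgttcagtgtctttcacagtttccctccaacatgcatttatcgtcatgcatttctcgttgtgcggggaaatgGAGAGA
sdc-1, chrX:16275388-16275487, plus strand: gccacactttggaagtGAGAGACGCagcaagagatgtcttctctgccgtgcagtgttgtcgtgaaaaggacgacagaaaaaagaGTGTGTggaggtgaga
lin-14, chrX:11465360-11465459, plus strand: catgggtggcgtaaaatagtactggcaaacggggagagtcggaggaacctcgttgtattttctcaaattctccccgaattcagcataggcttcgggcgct
Of the 366 windows, 266 overlapped no exon, and 141 of these held at least 1 of the 4 marked words. The windows of rpl-11.2 and sdc-1 held both a GA repeat and a CA repeat, those of mans-3 and ZC506.1 a CA repeat, and those of sdc-2 and eef-1A.2 a GA repeat. The window of puf-9, the region with the highest score, overlapped an exon and is not shown.

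Most X promoter regions belonged to a single gene. Of the 366 regions, 338 lay in the window of 1 gene and 28 in the windows of 2 genes, and together they covered 376 of 2731 X protein-coding genes (13.8%), against 2154 of 17242 autosomal genes (12.5%). A gene is called bound below when it is one of these. No region lay in the windows of more genes. The strongest shared region lay at the starts of C28G1.2, annotated by RefSeq as a serpin domain protein, and the exocyst gene sec-15 (chrX:8835799-8836269, score 458; ranks 131, 105 and 133 in replicates 1, 2 and 3). A tRNA gene lay within 500 bp of its point source, so that region is uncertain for a reason given below. The next shared region lay between trap-2, a subunit of the translocon-associated protein complex, and the lectin gene ile-2 (chrX:768068-768414, score 450; ranks 162 and 144 in replicates 2 and 3, and a higher one in replicate 1). In each replicate's own top regions, that is its 5167 highest-scoring distinct regions, 14.2%, 13.9% and 14.4% of X genes were bound in replicates 1, 2 and 3, against 12.7%, 12.2% and 12.5% of autosomal genes. The X share was higher by 1.70 ± 0.17 percentage points (mean ± SD, n = 3) in 3 of 3 replicates. An exact sign-flip permutation test over 3 replicates cannot give a two-sided p below 0.25, which it gave here (0.29 after Benjamini-Hochberg adjustment over 7 measures).

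Scores are the authors' signal values and are compared only within a list. The X promoter regions ranged from 62.3 to 858, with a median of 123.9 and quartiles of 85.7 and 204.9. The autosomal promoter regions had a median of 118.1 and quartiles of 82.6 and 189.6, and the X regions outside promoters a median of 103.9. By chromosome, the median of 123.9 on X lay inside the autosomal range of 110.9 on chromosome V to 126.01 on chromosome II. The difference in median log2 score between X and autosomal promoter regions was −0.01, −0.02 and 0.09 in replicates 1, 2 and 3 (mean 0.02 ± 0.06, SD, n = 3; exact sign-flip permutation p = 1, two-sided). The direction was not shared by the replicates, and without replicate 3 the mean was −0.02. At the top of the list, the X promoter regions made up 2 of the 50 highest-scoring nuclear regions (puf-9 and serp-1.1), 28 of the 250 highest and 10.4% of the 1000 highest, against 7.03% of all nuclear regions. Promoter regions of all chromosomes made up 548 of the 1000 highest. Of these, 19% were on X, close to the 16.7% over all promoter regions. Among the 50 highest were 19 X regions, most of them outside promoters.

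The 20 X promoter regions with the highest scores were all among the top regions of all 3 replicates, and their ranks stayed between 28 and 259. The highest lay upstream of puf-9, which encodes a Pumilio-family RNA-binding protein (chrX:5840977-5841523, point source at −279 bp, score 858). It ranked 31, 29 and 30 in replicates 1, 2 and 3, with scores of 348, 367 and 144 in those lists. Its point source lay nearer to the start of a non-coding gene, W06B11.7, 37 bp inside that gene. The region of serp-1.1, a stress-associated endoplasmic reticulum protein gene by its RefSeq product name, followed closely (chrX:15841083-15841484, −295 bp, score 853). It ranked 33, 28 and 29, so the order of these 2 genes differed between replicates. The third, rpl-11.2, encodes a large ribosomal subunit protein (chrX:2242808-2243161, −375 bp, score 578) and ranked 70, 79 and 39. Below these came a step to a score of 535 and a gradual decline to 427 at the 20th region.

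Several of the 20 lay at genes of protein folding, glycosylation and transport along the secretory route. The mannosidase genes mans-3 (score 535, −154 bp) and ZC506.1 (488, −199 bp) ranked 95, 68 and 88, and 85, 90 and 208, in replicates 1, 2 and 3. The region of uggt-1, whose product re-glucosylates misfolded glycoproteins, scored 527 at −183 bp and ranked 82, 65 and 158. That of hsp-3, an Hsp70 chaperone of the endoplasmic reticulum, scored 457 at −53 bp and ranked 152, 143 and 77. The regions of epn-1 (epsin, score 515) and dpy-23 (AP-2 clathrin adaptor subunit mu, 443) lay at genes of endocytosis, at −426 and −341 bp. For uggt-1, ZC506.1 and epn-1, replicate 3 gave the lowest rank, and for hsp-3 and rpl-11.2 it gave the highest. These roles were read from the 20 genes after they had been ranked and were not tested as a group.

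The rest of the 20 were a mixed set. F17E5.2, a putative mitochondrial carrier gene, scored 522 with ranks of 84, 89 and 90. The WD-repeat gene sym-4 scored 515, and nipi-3, a Tribbles-like kinase gene of antifungal defence, scored 495 with ranks of 86, 88 and 60. ZK1193.2 (457) and F13C5.2, a bromodomain gene (452), followed, and F13C5.2 ranked 136, 208 and 54. The translation elongation factor gene eef-1A.2 scored 443, the dosage compensation gene sdc-2 435, the zinc-finger gene zfp-3 430, and sdha-1, which encodes the flavoprotein subunit of succinate dehydrogenase, 427. The point sources of rpl-11.2, epn-1, ZK1193.2 and sdha-1 also lay, like that of puf-9, closer to a non-coding gene than to the coding gene named, for ZK1193.2 to a tRNA gene. tRNA genes have near-identical copies that can share reads, so that region is uncertain.

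**Figure D1:**
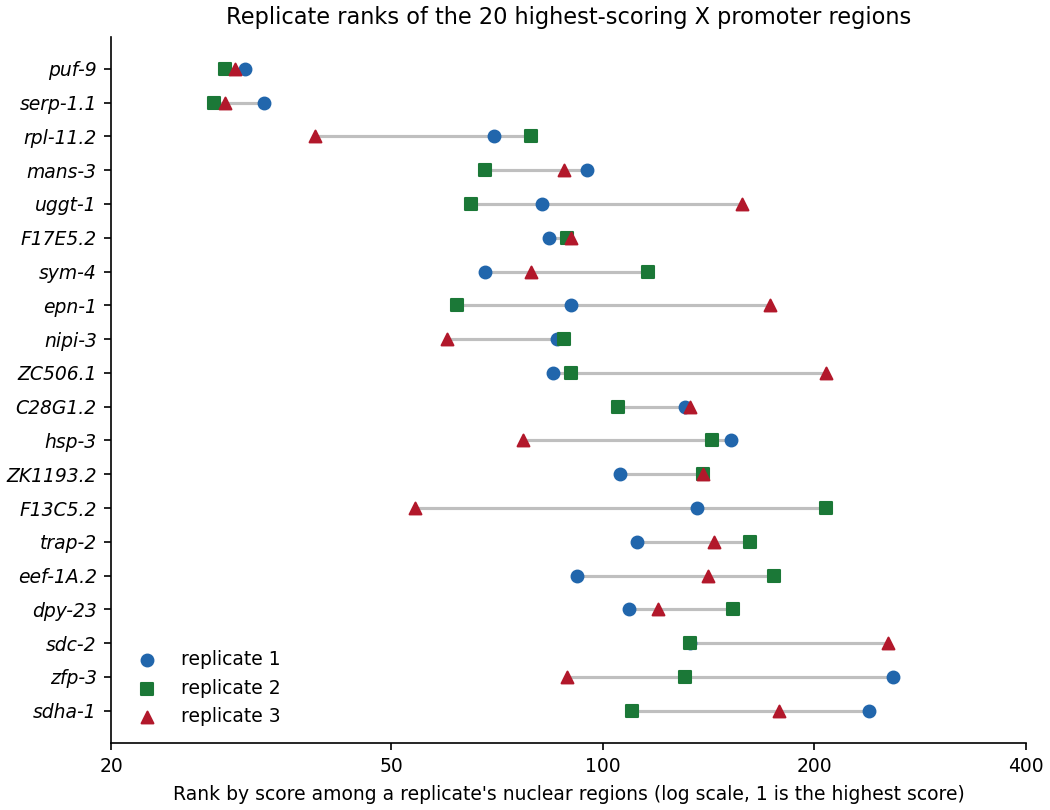
Rank by score of the 20 highest-scoring X promoter regions in each replicate (x axis, log scale; 1 is the highest score) with the nearest protein-coding gene on the y axis, ordered by score in the optimal list. Each marker is 1 replicate and grey lines join the lowest and highest rank: puf-9 and serp-1.1 sit between ranks 28 and 33 in all 3 replicates, while F13C5.2 spans 54 to 208.

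Across the 366 members the median ranks in the replicates were close, and replicate 3 held the fewest members among its top regions. The median rank of the X promoter regions was 2149, 2082 and 2125 in replicates 1, 2 and 3, against 2150, 2264 and 2519.5 for autosomal promoter regions. Among the top regions of replicates 1, 2 and 3 were 328 (89.6%), 329 (89.9%) and 301 (82.2%) of the 366, against 88%, 85.4% and 79.4% of autosomal promoter regions. All 3 replicates held 257 of them (70.2%), against 1208 of 1823 autosomal promoter regions (66.3%). By chromosome this share was 70.2% on X and 61.0% to 70.5% on the autosomes, so X lay inside the autosomal range. A further 80 X promoter regions were in the top regions of 2 replicates, 27 in those of 1, and 2, spr-3 and T01C8.2, in none. In each replicate, 14 members overlapped a region that another member also overlapped, and these were counted as matched.

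Score and reproducibility went together, which the making of the IDR list from the same reads builds in. All 92 members with a score of at least 205.3 were in the top regions of all 3 replicates, against 19 of the 92 members with the lowest scores (20.7%). The point source moved little between replicates, with a median shift from the optimal list of 12, 12 and 22 bp in replicates 1, 2 and 3. The 3 lowest-scoring members were Y49A10A.2 (63.1), T01C8.2 (62.99) and F44A6.5 (62.3). Y49A10A.2 ranked 14550, 2887 and 6185, and T01C8.2 ranked 7145, 5933 and 5625. The replicate regions matched to F44A6.5 had point sources 191 to 200 bp away and belonged to a stronger neighbouring region of the same gene (score 146).

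A few members differed strongly between replicates. By the ratio of the lowest to the highest rank, taken as a log2 spread, the widest at 3.44 was kin-20, a casein kinase 1 gene that takes part in developmental timing (score 169, −467 bp), with ranks of 1681, 718 and 7772, low in replicate 3. F02C12.3 (127), spp-5, a saposin-type gene (74.5), and F52H2.3 (81.0) were likewise lowest in replicate 3, at ranks 15005, 25108 and 17289. The ugt-50 region at −73 bp (79.6), a glucuronosyltransferase gene, was instead lowest in replicate 2, with ranks of 3964, 14028 and 1523. Over the 358 members with a region in every replicate, 143 ranked lowest in replicate 3, 114 in replicate 1 and the others in replicate 2. The remaining 8 had no overlapping region in 1 replicate's list: C31E10.5 and sorf-1 in replicate 1, H35N09.1 in replicate 2, and plpp-1.3, aco-1, ckc-1, apm-3 and F45E1.1 in replicate 3. The part that the stock source or the fragmentation of replicate 3 plays in these ranks was not tested.

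Point sources at X promoters lay farther upstream than those at autosomal promoters. Their median position was −204.5 bp (quartiles −316 and −116.25), against −171 bp (quartiles −272 and −84) on the autosomes. In steps of 100 bp from −500 bp to the TSS, the shares of X promoter regions were 9.29%, 19.1%, 22.1%, 28.4% and 16.7%, and 4.37% lay at or after the TSS. On the autosomes the 100 bp before the TSS held 22.5% and the sequence from the TSS on 6.69%. The medians in replicates 1, 2 and 3 were −200.5, −207 and −205 bp on X, against −167, −171 and −172 bp on the autosomes. The difference was −34.2 ± 1.61 bp (mean ± SD, n = 3), in the same direction in 3 of 3 replicates, with no overlap between X and autosomes (exact sign-flip permutation p = 0.25, two-sided; adjusted 0.29). Of the 6 chromosomes, X had the median farthest upstream, the autosomes ranging from −179.5 to −162 bp. The size of the difference moved with the window, being −13.5 bp with 200 bp upstream and −55.3 bp with 1000 bp upstream and 200 bp downstream.

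**Figure D2:**
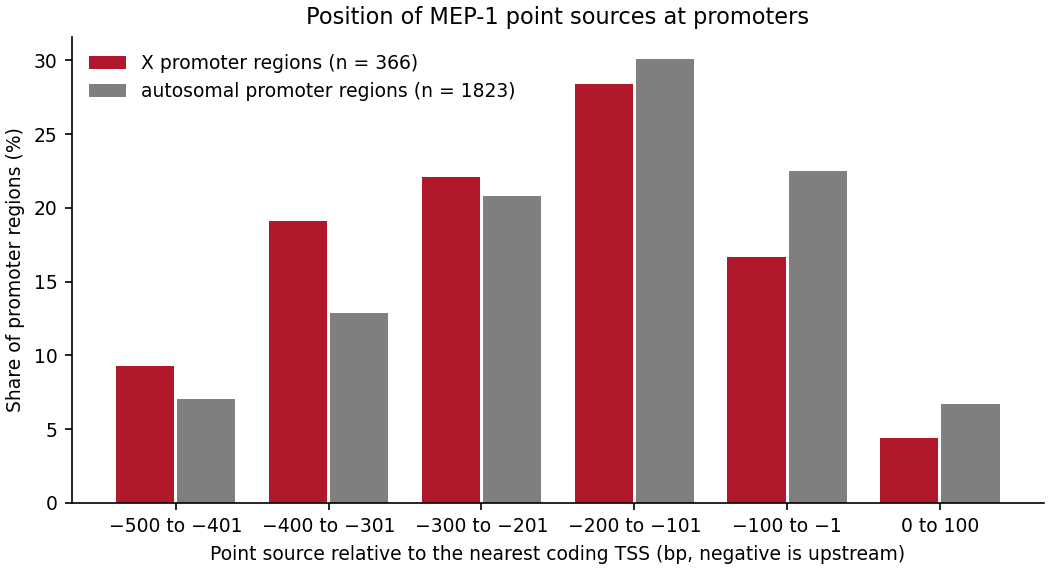
Share of promoter regions (y axis, %) by the position of the point source relative to the nearest coding TSS (x axis, bp), for 366 X and 1823 autosomal promoter regions of the optimal list. The X bars stand above the autosomal ones in the 3 bins upstream of −200 bp and below them from −200 bp on.

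The neighbourhood of the X genes differed from that of autosomal genes, and the median position differed between kinds of neighbour. Of the X promoter regions, 26 (7.10%) lay at a gene whose upstream neighbour is transcribed away from it and lies within 1000 bp, against 27.9% of autosomal promoter regions. Another 60 lay within 1000 bp behind a gene on the same strand, a class that held 27.8% of autosomal promoter regions. The remaining X regions mostly had their coding neighbour more than 1000 bp away: 140 (38.3%) a divergent and 129 (35.2%) a same-strand one, against 24.7% and 15%. Non-coding genes and upstream exons of the gene itself did not count as neighbours. Internal starts of a gene can therefore fall in these classes, as at the weaker nhr-1 region (score 133), whose point source lay in an intron. Among divergent genes within 1000 bp the median position was −72 bp on X and −138 bp on the autosomes, the reverse of the pooled order. It was −148 against −159 bp behind a close same-strand gene, −233 against −209.5 bp with a far divergent neighbour, and −232 against −221 bp with a far same-strand neighbour. For the 11 members at genes inside another gene it was −123 bp, against −153 bp. Within classes the X median was farther upstream only with far neighbours, by less than the pooled difference, and no test was made within classes. The part of the neighbourhood in the pooled difference was not tested either.

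The same classes split the share of genes bound. On X, 29.7% of the 158 genes with a divergent neighbour within 1000 bp were bound, against 27.4% of 3273 such genes on the autosomes. With a far divergent neighbour it was 13.4% of X genes and 9.47% of autosomal genes, and with a far same-strand neighbour 12.7% and 6.02%. Behind a close same-strand gene it was 11.6% and 10.3%. Inside another gene it was 12.9% and 11%. The X share was the higher in each class, and 5.79% of X genes, against 19% of autosomal genes, belonged to the class with the highest share. Members with a close divergent neighbour also had the highest median score on X, 183, and those with far divergent and far same-strand neighbours had 138 and 103. The autosomal promoter regions gave 148, 115.2 and 102 for these classes.

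A smaller share of X regions than of autosomal regions lay at promoters. It was 34.01% of X regions and 44.1% of autosomal regions in the optimal list, and of the 6 chromosomes X was lowest, the autosomes ranging from 40.97% to 47.2%. In replicates 1, 2 and 3 it was 35.2%, 34.1% and 35.3% on X, against 45.1%, 43.8% and 44.6% on the autosomes. The difference was −9.61 ± 0.33 percentage points (mean ± SD, n = 3), with no overlap between X and autosomes (exact sign-flip permutation p = 0.25, two-sided; adjusted 0.29). Promoter regions numbered 20.7 per Mb on X, inside the autosomal range of 17.4 to 29.02 per Mb.

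**Figure D3:**
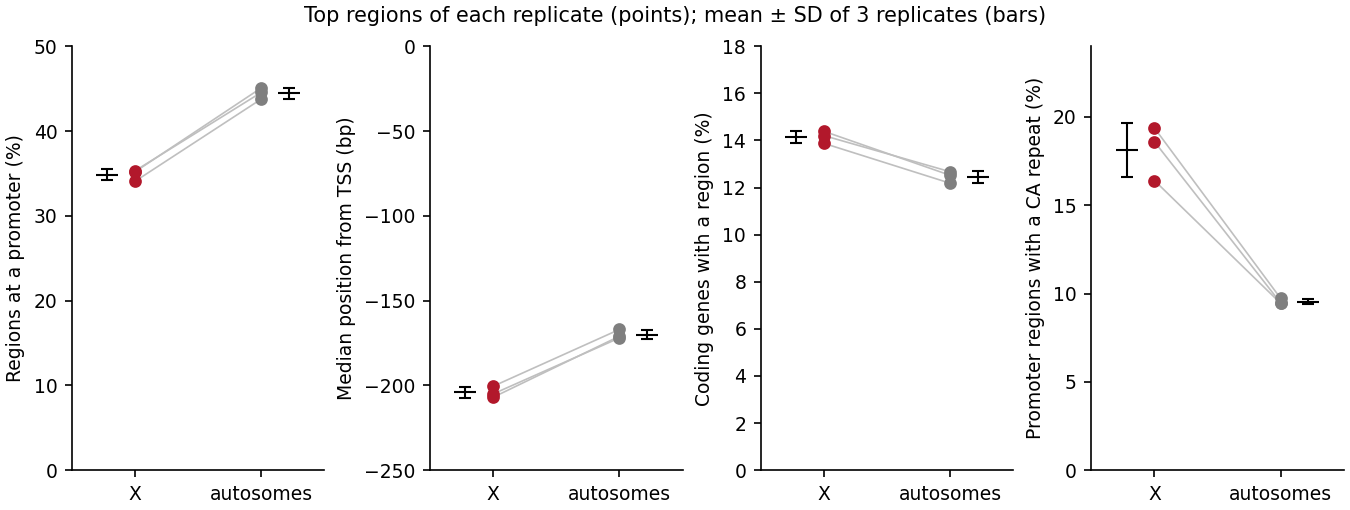
Measures in the 5167 highest-scoring regions of each replicate on X and on the autosomes: share of regions at a promoter, median position of the point source at promoters, share of protein-coding genes bound, and share of promoter regions with a CA repeat at the point source. Each point is 1 replicate, lines join the values of a replicate, and bars give the mean and SD of 3 replicates. X and autosomes do not overlap in any panel shown. Not all 7 measures are shown, and the median log2 score, whose difference changed direction between replicates, is left out.

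By location, 289 of the 366 point sources (79%) were intergenic, 48 lay in introns, 24 in 5′ UTRs, 3 in coding exons (gpd-2, sek-3 and sgca-1) and 2 in 3′ UTRs (K09E9.3 and vha-20). A non-coding gene started nearer to the point source than the coding gene at 46 of the 366 members, and at 9.05% of autosomal promoter regions. Median scores of these 46 and of the other 320 were 123.9 each. A tRNA gene lay within 500 bp of 8 of the 366, among them C28G1.2 and nhr-255. These 8 are uncertain for the reason given above. The nearest non-coding gene was a tRNA gene at ZK1193.2, sor-3 (354) and C04C11.25 (264).

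Just inside the upstream edge of the promoter window lay tag-52 at −500 bp (score 124), the patronin gene ptrn-1 at −497 bp (204) and the histone H3.3 gene his-71 at −497 bp (71.4). Just outside it lay R07E3.4 at −502 bp (90.7), sprr-2 at −513 bp (65.98) and syx-2 at −516 bp (72.9). Inside the downstream edge lay C14A11.5 at 93 bp (66.1), cal-5 at 89 bp (76.6) and C15H9.4 at 83 bp (142), and outside it F14B8.6 at 113 bp (76.6), F55F1.2 at 119 bp (90.1) and T07F12.2 at 143 bp (76.4).

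Genes of sex determination and dosage compensation split between bound and unbound. Of 6 X genes in the sex determination and dosage compensation list, 3 were bound (50%), against 4 of 19 autosomal genes (21.1%). The shares over all genes were 13.8% and 12.5%, and the median score of the 3 was 147, against 123.9 over all X promoter regions. The strongest was sdc-2, whose product brings the dosage compensation complex to X (chrX:11522118-11522452, −393 bp, score 435). It ranked 133, 133 and 255 in replicates 1, 2 and 3. The region of sdc-1, a zinc-finger partner of SDC-2, scored 138 at −325 bp and ranked 1623, 1352 and 4935. That of ceh-39, a homeobox gene that counts as an X signal for sex, scored 147 at −166 bp and ranked 2887, 2086 and 620. The ceh-39 point source lay nearer to the start of a non-coding gene, T26C11.10, at −135 bp. The sex switch gene xol-1, a target of the X signals, and sex-1, a nuclear receptor gene that counts as such a signal, had no point source in their windows in any list, pooled and replicate lists included. For fox-1, an RNA-binding X signal gene, point sources appeared only in the relaxed lists, at ranks 17901, 11043 and 5690. They lay at different annotated starts, in regions beginning at chrX:2459902, 2456142 and 2450754 in replicates 1, 2 and 3, so the ranks are not of a single site.

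Heterochronic genes, which set the timing of larval development, were bound at 4 of 7 on X (57.1%), against 3 of 11 on the autosomes (27.3%), beside 13.8% of all X genes and 12.5% of all autosomal genes. These were puf-9 and kin-20, described above, the Argonaute gene alg-1 (score 155, −284 bp; ranks 1815, 1237 and 1796) and lin-14, a target of the lin-4 microRNA (152, −150 bp; ranks 1590, 1286 and 768). All but kin-20 were in the top regions of all 3 replicates. As at puf-9, the point sources of kin-20 and lin-14 lay nearer to the start of a non-coding gene than to the coding TSS. hbl-1, another timing gene, had a point source in its window only in replicate 1, at rank 16118. daf-12, a steroid receptor gene, had point sources only in the relaxed lists, at ranks 14355, 15059 and 6669. The region of replicate 2 (chrX:10644218-10644621) lay at another annotated start than those of replicates 1 and 3 (chrX:10664168-10664557 and chrX:10664000-10664395). The synMuv B gene lin-15B, a repressor of germline genes in the soma, had none in any list.

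Nuclear hormone receptor genes, a family of ligand-regulated transcription factors that is much enlarged in worms, had several members among the X promoter regions. On X 8 of 23 (34.8%) were bound, against 26 of 246 on the autosomes (10.6%). The shares over all genes were 13.8% on X and 12.5% on the autosomes. Chromosome V, where 167 of the family lie, had 15 bound (8.98%), and chromosome IV, the next highest after X, 7 of 33 (21.2%). Taking the highest-scoring region of each gene, the median score was 175 for the 8 and 94.1 for the bound autosomal receptors. Over all X promoter regions, second regions of a gene included, it was 123.9. The strongest was nhr-1 (chrX:17513604-17513904, −308 bp, score 338; ranks 206, 475 and 298), followed by nhr-255 (213; ranks 942, 1000 and 606) and nhr-32 (194; ranks 1830, 940 and 364). The nhr-255 point source, at −492 bp, lay 36 bp inside a non-coding gene, ZK678.11. A tRNA gene lay within 500 bp of it, so that region is uncertain. The other 5 were nhr-40 (191), nhr-35 (159), the molting regulator gene nhr-25 (110), nhr-14 (69.7) and nhr-28 (66.3). nhr-14 was missing from the top regions of 1 replicate and nhr-28 from those of 2. nhr-1 and nhr-35 each had 2 members.

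Genes of respiration and of the stress response had shares bound above those over all genes, which were 13.8% on X and 12.5% on the autosomes. Of the respiratory chain and ATP synthase genes, 5 of 6 were bound on X (83.3%), against 35 of 72 on the autosomes (48.6%), with a median score of 309 on X. They were sdha-1, the complex III core genes ucr-2.2 (350, −185 bp; ranks 283, 276 and 261) and ucr-2.1 (306), and the ATP synthase subunit genes asb-2 (309; ranks 438, 334 and 407) and asg-2 (259). The regions of ucr-2.1 and asg-2 each lay between divergent genes, with nmat-1 and glr-6. Of the heat shock and stress genes, 5 of 9 were bound on X (55.6%), against 20 of 47 (42.6%). These were hsp-3, atf-6, a transcription factor gene of the unfolded protein response (349, −277 bp; ranks 351, 200 and 230), the protein disulfide isomerase gene pdi-2 (230, −13 bp; ranks 604, 775 and 977), atf-4 (166) and the kinase gene pek-1 (110). Of the 2 ribosomal protein genes on X, rpl-11.2 was bound, and 65 of 83 were bound on the autosomes (78.3%). X holds none of the 33 proteasome genes, of which 19 were bound.

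Neuronal gene groups differed among themselves, beside shares of 13.8% over all X genes and 12.5% over all autosomal genes. None of the 34 neuropeptide and insulin genes, 6 touch receptor genes or 34 chemoreceptor genes in the lists was bound on X, against 2 of 106, 2 of 10 and 5 of 1276 on the autosomes. With 6 touch receptor genes on X, a count of 0 lies within 1 gene of that share. Of the 88 listed ion channel and neurotransmitter receptor genes, 1 was bound (1.14%), against 5 of 202 (2.48%). That gene, the glutamate receptor gene glr-6, shares its region with asg-2, whose TSS is nearer. The lists are not complete. By RefSeq product name, the neuropeptide-like gene B0410.3 (score 75.5) and the degenerin-like gene acd-3 (85.6) were bound but not counted in them. Axon guidance and adhesion genes had 1 of 15 (6.67%), against 4 of 38 (10.5%), namely the actin-binding limatin gene unc-115 (236, −110 bp; ranks 839, 722 and 487). Genes of synaptic transmission had 4 of 12 (33.3%), against 8 of 40 (20%), with a median score of 180.0 on X. They were the liprin gene syd-2 (260, −450 bp; ranks 783, 473 and 575), the dynamin gene dyn-1 (240, −409 bp; ranks 593, 579 and 891), the Munc18 gene unc-18 (120; ranks 1479, 5398 and 2943) and the synaptogyrin gene sng-1 (90.4), the last outside the top regions of 2 replicates. The syd-2 point source lay nearer to the start of a non-coding gene, F59F5.9, 55 bp inside that gene.

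The remaining lists are set against shares of 13.8% over all X genes and 12.5% over all autosomal genes. Of 8 X genes in the list of synMuv, NuRD and other chromatin genes, 1, the histone demethylase gene utx-1, was bound (12.5%; score 84.2; ranks 6715, 2535 and 11284), against 22 of 48 autosomal genes (45.8%). That X share is close to the share over all X genes, and the list is not complete. By RefSeq product name, bound X genes left out of it include the bromodomain genes F13C5.2 (452) and bet-2 (323) and the histone gene his-24 (202). Of 19 genes of the Ras, Notch, Wnt, TGF-beta and insulin pathways, 1, the TGF-beta cofactor gene sma-9, was bound (5.26%; score 107; ranks 4422, 1957 and 2445), against 19 of 82 (23.2%). That list is not complete either. By RefSeq product name, it left out the bound X genes vang-1 (Vang-like, 121) and sur-7 (suppressor of activated let-60 Ras, 67.8). Homeobox ceh genes had 1 of 18, ceh-39, against 1 of 45. Other transcription factor families had 8 of 47 (17%), against 37 of 171 (21.6%), led by atf-6, myrf-2 (324; ranks 293, 455 and 193) and the Mad-like gene mdl-1 (258; ranks 483, 838 and 383). Muscle genes had 2 of 15 (13.3%), the actin gene act-4 (231) and the sarcoglycan gene sgca-1 (70.5), against 7 of 38 (18.4%). Intestinal genes had 3 of 18 (16.7%), the heme transporter gene hrg-1 (213), spp-3 (106) and the GATA factor gene elt-2 (74.7), against 7 of 38 (18.4%). The X shares of these and of the other transcription factor families lay near the share over all X genes. Collagen genes had 2 of 31 (6.45%), col-166 (84.8) and col-167 (77.3), against 5 of 147 (3.4%). The lists are small and were not tested as sets, so these counts are descriptions.

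**Figure D4:**
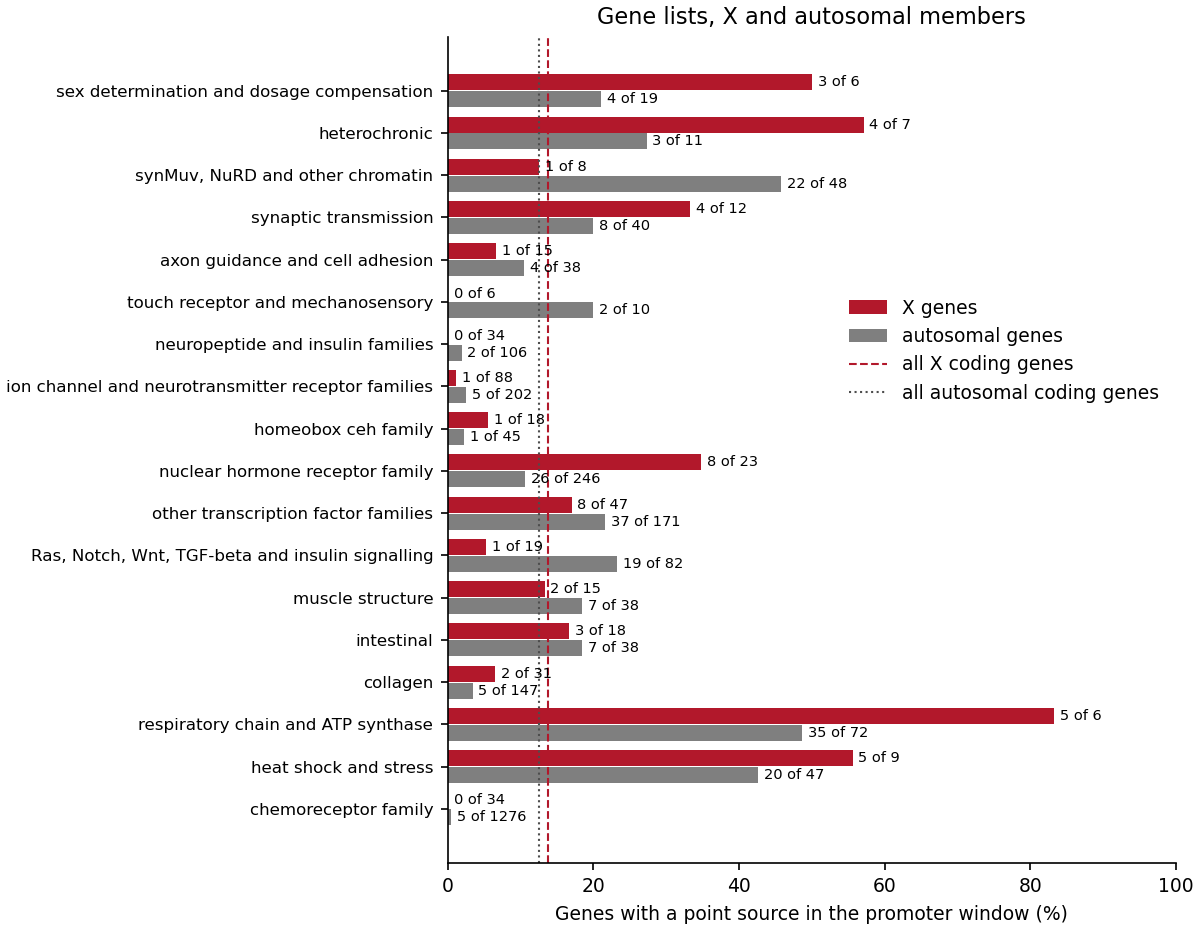
Share of the genes of each list with a point source in the promoter window (x axis, %), X genes above autosomal genes, with the counts beside the bars, for the 18 lists with at least 6 X genes. Dashed and dotted lines mark all X (13.8%) and all autosomal (12.5%) protein-coding genes; nuclear hormone receptor genes stand at 34.8% on X and 10.6% on the autosomes.

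The DNA at the point sources was rich in G and C and in short repeats. In the 100 bp at the point source, X promoter regions averaged 47.4% GC, against 35.4% in windows 500 bp to either side of the same points and 35.2% in windows centred 200 bp upstream of the X genes without a region. Autosomal promoter regions averaged 44.1%. The word ACACAC, searched on both strands and here called a CA repeat, occurred in 71 of 366 X windows (19.4%), against 3.83% of the windows 500 bp away and 5.14% at X promoters without a region. It occurred in 9.49% of autosomal promoter regions and in 13.4% of all 5209 nuclear regions. X regions outside promoters held it at 16.3% of 710, nearer to the X promoter regions than to the autosomal ones. In replicates 1, 2 and 3 its share was 16.398%, 18.6% and 19.4% at X promoter regions, against 9.44%, 9.47% and 9.73% at autosomal ones. The difference was 8.58 ± 1.43 percentage points (mean ± SD, n = 3), in the same direction in 3 of 3 replicates (exact sign-flip permutation p = 0.25, two-sided; adjusted 0.29). This word was chosen after the sequences had been seen.

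The GA repeat GAGAGA occurred in 99 X windows (27%), against 6.28% of windows 500 bp away, 8.45% at X promoters without a region, 19.3% of X regions outside promoters, 21.7% of autosomal promoter regions and 26.3% of all nuclear regions. In replicates 1, 2 and 3 the X share exceeded the autosomal share by 4.38, 5.34 and 4.83 percentage points (exact sign-flip permutation p = 0.25, two-sided; adjusted 0.29). Both repeats were found in 18 members, whose median score was 202, and neither in 214, with a median of 110. GC content also moved with the score, at 52.8% in the 92 highest-scoring members and 42.3% in the 92 lowest, and X exceeded the autosomes by 3.17 ± 0.27 percentage points of GC (mean ± SD, n = 3). The part of base composition in the shares of these words was not tested.

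Other words differed between X and autosomal promoter regions in either direction. The E2F site TTTCGCG occurred in 3 X windows (0.82%; F16B12.6, pqn-65 and M60.6), against 75 autosomal ones (4.11%), and the Sp1-like word CCGCCC in 3.28% against 7.19%. X regions outside promoters also had low shares of both, 0.423% and 3.66%. AGACGC occurred in 10.1% against 14.2%. The word ACGCGC occurred in 13.1% of X windows, against 12.5% of autosomal ones, and AGAGTG in 18% against 9.71%. Among words that were less frequent at point sources, TATAAA occurred in 4.92% of X windows, against 14.1% of windows 500 bp away, and TTTGAA in 12% against 32.1%. GCGCAGGG, the core of the motif at dosage compensation complex recruitment sites, occurred in 4 X promoter windows (1.09%), those of R04E5.9 (score 338), the GRIP domain gene gcc-1 (105), the kinase gene jkk-1 (103.5) and apm-3 (69.0). It occurred in 14 of 710 X regions outside promoters, in none of 1823 autosomal promoter regions and in 0.346% of all nuclear regions. These 4 genes, and the 3 with the E2F word, are named because the counts are small, and were picked after their values were seen. Words can share letters, as GAGAGA and AGACGC do in the sdc-1 window. A word in a window is a match of letters, not evidence of a bound factor.

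**Figure D5:**
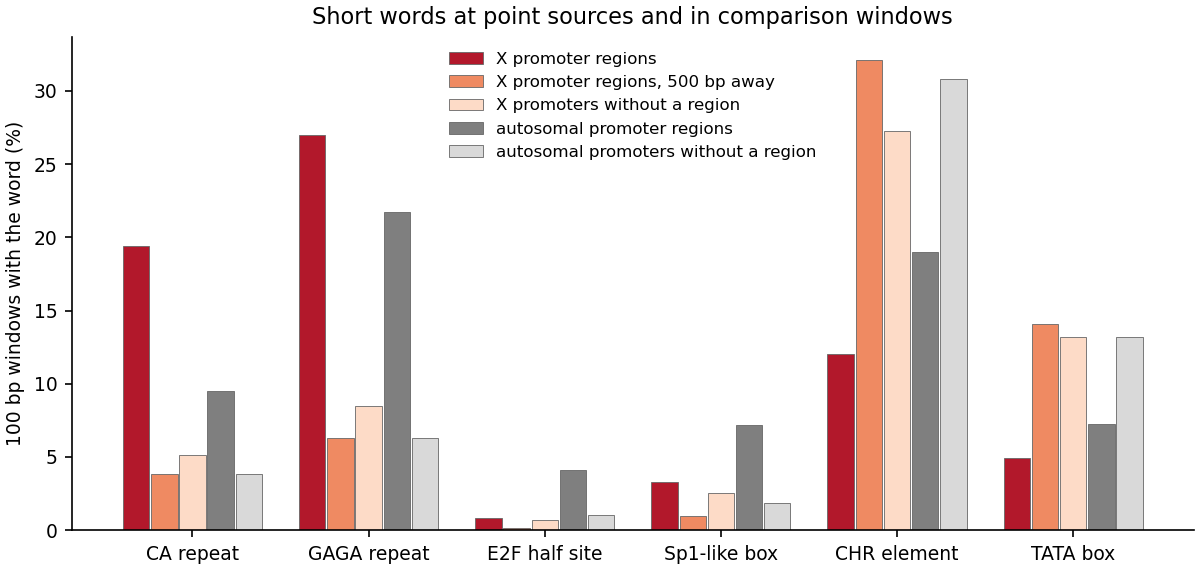
Share of 100 bp windows (y axis, %) that hold each of 6 short words on either strand, at the point sources of X promoter regions, 500 bp away from them, at X promoters without a region, and at autosomal promoters with and without a region. The CA repeat stands at 19.4% in X promoter regions and 9.49% in autosomal ones, while the E2F and Sp1-like words stand lower in X promoter regions.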

How the data were processed

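The authors deposited, on build ce11, a relaxed list of 30000 regions for each replicate and for all replicates pooled, and the optimal list described above. The deposited score of a region has no stated scale and was compared only within a list. Not given in the sources used here are the aligner, the caller, the IDR threshold and the read depth. Lists on build ce10 were not used, and 20 mitochondrial regions were left out.

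TSSs came from Ensembl release 115 and sequence and product names from RefSeq. Replicate ranks are those of the highest-scoring region overlapping by at least 1 bp, among distinct nuclear regions. Differences between X and autosomes were tested over replicates by exact sign-flip permutation in scipy 1.17.1 (Python 3.11). That test was checked on made-up values with known p-values, and promoter assignment and overlap on simulated regions. Nothing in the labels says how separately the replicates were grown, so p-values describe only these replicates. Where all replicates differ in the same direction, the test gives its smallest possible p, whatever the spread of the differences.

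Genes were named by rule: the 20 highest and 3 lowest scores, up to 3 bound X genes per list, the window edges, the 5 widest rank spreads, the regions with the most genes, and 11 fixed genes; other bound list members were added after their values were seen. Members and lists were chosen with earlier results of these data known, and the CA repeat and the words AGACGC, then ACGCGC, then AGAGTG after the sequences were seen. Alternatives changed the window, the TSSs, the score threshold, the number of top regions and the replicates. Of the list symbols, 5 matched no gene.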

Additional observations from a re-analysis of the deposited data

How the results depend on the processing

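The count of 366 X promoter regions fell to 181 with a window of 200 bp upstream to 100 bp downstream and to 213 in the upper part of the list by score; its 7 other alternatives stayed within 1.5 times. The percentage of X genes bound, 13.8, was 17.6 with a window of 1000 bp upstream to 200 bp downstream, 6.74 with the narrow window, 12.1 with the outermost TSS only, 8.53 in the upper part of the list, 15.5 when any overlap counted, and 10.6 to 11.2 when each replicate was left out, where regions had to match both others. The share in the top regions of all 3 replicates, 70.2%, was 96.2% in the upper part of the list, 63.4% with point sources required within 100 bp, 42.1% with the top 2500 regions, 91.5% with the top 10000, and 75.7% to 81.1% over pairs of replicates, an alternative added after the data were seen. These moves follow from how the alternatives are built. The log2 score difference changed sign only without replicate 3 (−0.0168; range over left-out replicates −0.0168 to 0.0356), and the cause was not tested. The promoter share stayed lower on X under all 12 alternatives (−7.23 to −11.5 points), and the position stayed farther upstream under all 11 (−13.5 bp with the narrow and −55.3 bp with the wide window). The differences between X and autosomes were taken within each replicate, and with 1 group of samples there was no pairing between groups. Depth is unknown, so a missing region is not evidence of no binding.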

Other observations

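X genes with a promoter region were longer than those without, with a median length of 3169 bp against 2427 bp, and 43.1% of them had several annotated coding transcripts, against 25.7%. On the autosomes the bound genes had a median of 2405.5 bp against 1916 bp, and 46.5% against 26.1% had several transcripts. Genes with several annotated starts have more windows, and the part of this in the counts was not tested.

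Along X the members were spread over the whole chromosome. In 2 Mb bins, the share of genes bound ran from 10.7% in the last bin to 18.4% between 4 and 6 Mb, where 57 members lay. The median score was highest between 14 and 16 Mb, at 203.5 over 44 members, and lowest in the last bin, at 94.5 over 22 members. Differences between bins were not tested.

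In 18 genes 2 members fell in promoter windows. Some lay at separate annotated starts, as at nhr-1 (scores 338 and 133), the sirtuin gene sir-2.2 (239 and 68.5) and hrg-1 (213 and 90.1). Others lay side by side at a single promoter, as at the bromodomain gene bet-2 (323 and 103) and the salt-inducible-like kinase gene kin-29 (288 and 130), where both point sources belong to 1 interval.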
